A study of Mus musculus with 12 samples.

Results

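Macrophages take in, store, recycle and release much of the iron of the body, and 9 genes that carry out or control these steps were followed here in cultured mouse macrophages. They are *Tfrc*, *Slc11a2* and *Slc11a1* for uptake and transport, *Fth1* and *Ftl1* for storage, *Hmox1* for release of iron from heme, *Slc40a1* for export, and *Ireb2* and *Aco1*, which encode the iron regulatory proteins. The genes were picked by name and role, with earlier results of these data known. All 9 were on the array, with 14 probes between them, among 37018 named genes and unnamed transcripts, of which 20862 were bright enough to test. All 9 members were among those tested.

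The study compared 3 groups of 4 one-colour Agilent arrays. The first group was given IL4 at 10 ng/ml together with emodin at 50 µM, the second IL4 at 10 ng/ml alone, and the third was the vehicle control. The cells of all groups came from wild-type C57BL/6 mice 8 weeks old, with replicates 1 and 2 from females and 3 and 4 from males, and were kept in serum-free medium before treatment. The sample labels call them peritoneal macrophages, while the text on the design of the series names blood leukocytes, and the labels give both 6 h and an overnight treatment. Neither point was settled here. Nothing in the labels says whether the replicates were separate mice or cultures, so a p-value here reflects only how much these samples spread, which may be technical.

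Iron bound to transferrin enters cells through the transferrin receptor, and SLC11A2 then carries it out of the endosome. Iron that is not used is stored inside ferritin shells built of heavy and light chains, and it leaves the cell only through ferroportin, the product of *Slc40a1*. When iron is scarce, the iron regulatory proteins bind hairpins called iron-responsive elements: binding in the 5′ end of ferritin and ferroportin mRNAs blocks their translation, and binding in the 3′ end of *Tfrc* mRNA protects it from decay. Part of this control therefore acts on protein and is not seen in an mRNA level. IL4 is the cytokine that drives alternative activation of macrophages, and emodin is an anthraquinone found in rhubarb root.

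Levels are given as the log2 of a probe's intensity minus the log2 of the 75th percentile of its array, so a level of 0 is the 75th percentile. Levels of different probes are not comparable, and each probe is followed across groups only. Where a gene had several probes, the one with the highest mean stood for it. A gene was called changed where limma's adjusted p, by Benjamini-Hochberg over the 20862 genes tested, was under 0.05. No spot of these genes carried the scanner software's saturation flag, and every one of the 14 probes was well above background on all 12 arrays. Correlations between arrays were 0.991 to 0.997 within a group and 0.957 to 0.988 across groups.

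The arrays with emodin were dimmer. Their 75th percentile was 488 ± 31.4 intensity units with IL4 and emodin, against 776 ± 24.4 with IL4 and 730 ± 74 in the control (SD, n = 4 each; exact permutation p = 0.0286 for each comparison with emodin, two-sided, the smallest that 4 against 4 allows). One slide held the emodin arrays and a second slide all the others, so the effect of emodin cannot be told apart from that of the slide. The emodin and control arrays lay in one row of their slides and the IL4 arrays in the other. In IL4 against control, an effect of the row is thus inseparable from one of the cytokine. IL4 with emodin against IL4 differs in row as well as in slide. IL4 with emodin against control differs in slide but not in row. Each call below was also read after quantile normalization and after scaling to 7 spike-in probes, because the median difference of all genes with IL4 and emodin against IL4 was 0.17 in the scaling used here, 0.02 with quantile normalization and -0.92 with the spike-in probes. Spike-in scaling leaves in any difference in RNA input or labelling.

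All 5 macrophage markers with a probe were above background on every array. Their summed level was 645 to 768 with IL4 and emodin, 692 to 787 with IL4 and 613 to 630 in the control. The markers of large peritoneal macrophages summed to 5.89 to 6.81 with IL4 and emodin, below the 9.86 to 12 of IL4 and the 9.85 to 11 of the control. B cell markers were also lower with emodin, at 0.316 to 0.525, against 1.15 to 2.15 with IL4 and 1.01 to 2.36 in the control. Erythroid markers summed to 0.264 to 0.323 with IL4 and emodin, above the 0.168 to 0.196 of IL4 and the 0.184 to 0.246 of the control, although *Hbb-bs*, *Hbb-bt* and *Alas2* of the 6 were not above background on any array. Between IL4 and control, the macrophage sums above did not overlap and were higher with IL4. T cell markers were lower with IL4, at 1.98 to 3.48 against 4.23 to 4.86 in the control, and so were eosinophil markers, at 0.54 to 0.823 against 1.18 to 1.31. *Cd3d* and *Cd3g* of the T cell list and *Prg2* and *Epx* of the eosinophil list were not above background on any array. The part of these marker shifts in the differences below was not tested. In bulk RNA, fewer cells of a type and less RNA per cell cannot be told apart.

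IL4 against control asks what the cytokine does alone. The largest differences among the iron genes were a fall of the exporter *Slc40a1* to 5.76-fold lower and a rise of the transferrin receptor *Tfrc* to 3.02-fold higher. Of the transporters, *Slc11a2* rose on its brighter probe but not on its dimmer one, and *Slc11a1* fell, both by less, and the fall was not called with the spike-in probes. *Hmox1* was just outside the threshold, and the ferritin genes and both iron regulatory protein genes were not called. In all, 4 of 9 members were called, 2 higher and 2 lower, while 17.5% of all genes tested were called, 8.98% higher and 8.57% lower. The members' median difference was 0.00 and their median size 0.36, against -0.03 and 0.17 over all genes. The 4 IL4 arrays did not overlap the 4 control arrays for 5 members, against 24.8% of all genes.

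IL4 with emodin against IL4 asks what emodin adds. *Slc40a1* was 3.9-fold higher with emodin, and *Tfrc* and the brighter probe of *Slc11a2* were lower, each the opposite of its difference under IL4 alone. Both comparisons use the same IL4 arrays, so any deviation of those arrays moves the 2 differences in opposite directions. An effect of the row would do the same, since only the IL4 arrays lay in theirs. Its part in these opposite differences was not tested. *Slc11a1*, *Fth1*, *Ftl1*, *Hmox1*, *Ireb2* and *Aco1* were called higher as well, but each of these 6 lost its rise or its call when the arrays were scaled in another way. All 9 members were called, 7 higher and 2 lower, against 65.9% of all genes, 39.4% higher and 26.5% lower. Their median difference was 0.44 and their median size 0.73, against 0.17 and 0.50 over all genes. The groups did not overlap for 6 members, against 60.3% of all genes. With quantile normalization 4 members were called, 2 higher (*Slc40a1* and *Slc11a1*) and 2 lower (*Tfrc* and the brighter probe of *Slc11a2*, by which the gene is counted). With the spike-in probes 8 were called, 1 higher (*Slc40a1*) and 7 lower.

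IL4 with emodin against control shares its arrays with both comparisons above. Here 7 of 9 members were called, 6 higher and 1 lower, against 62.9% of all genes, 37.3% higher and 25.6% lower. *Tfrc*, *Slc11a1*, *Fth1*, *Ftl1*, *Ireb2* and *Aco1* were called higher and the brighter probe of *Slc11a2* lower, its other probe being higher, while *Slc40a1* and *Hmox1* were not called. The median difference of the members was 0.38 and their median size 0.52, against 0.15 and 0.47 over all genes. The arrays of the groups did not overlap for 4 members, against 54.2% of all genes. With the spike-in probes 6 members were called and all 6 were lower, and with quantile normalization 1 was called higher (*Tfrc*) and 3 lower (*Hmox1*, *Slc40a1* and the brighter probe of *Slc11a2*).

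**Figure D1:**
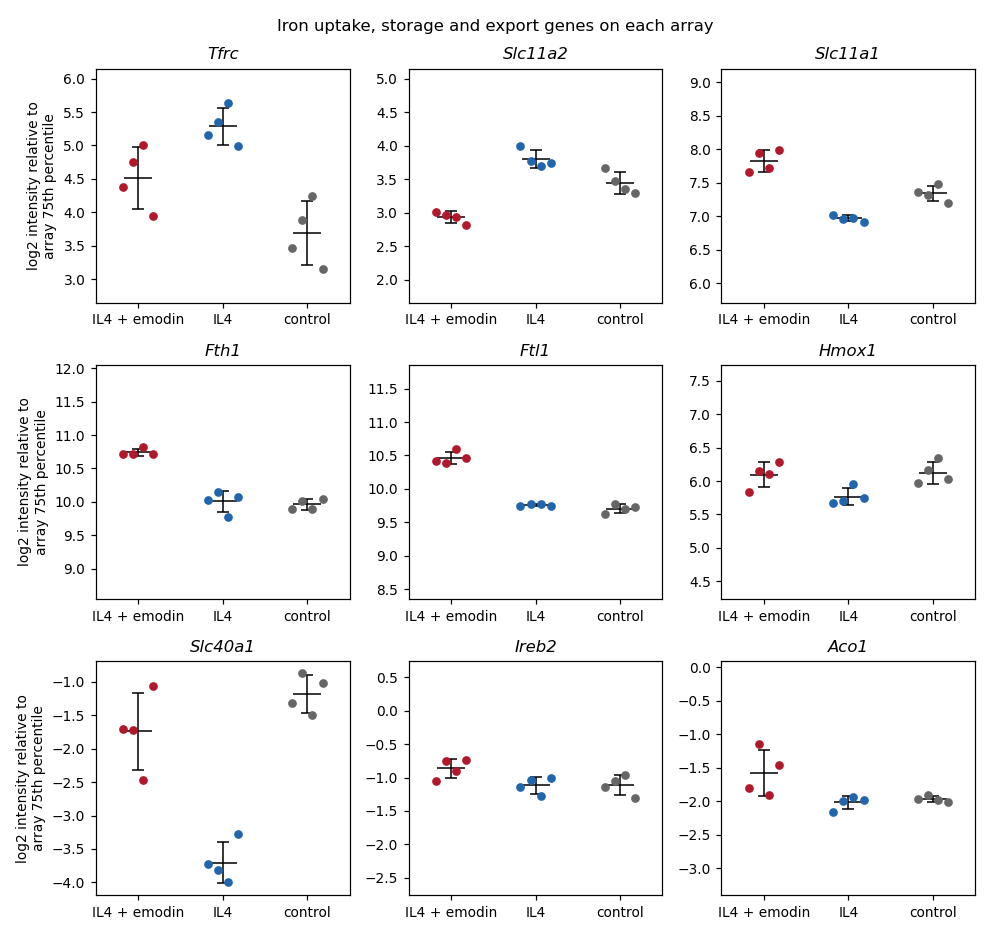
Level of each of the 9 iron genes on every array (log2 intensity relative to the array's 75th percentile, 1 probe per gene), with points for arrays and bars for the mean and SD of 4 arrays. *Slc40a1* was lowest and *Tfrc* highest with IL4 alone, and *Fth1* and *Ftl1* were highest with IL4 and emodin in this scaling, a difference that is absent or turned round in others.

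*Tfrc* encodes the transferrin receptor (chromosome 16, 32608896 to 32632794, GRCm38.p6). On its brightest probe, with 10 spots per array, the levels were 4.38, 4.75, 5.0 and 3.94 with IL4 and emodin, 5.16, 5.35, 5.64 and 4.99 with IL4, and 3.46, 3.88, 4.25 and 3.16 in the control. All IL4 arrays lay above all control arrays, and the emodin arrays lay between the means of the other groups and overlapped both. The 10 spots of one array had an SD of 0.051 to 0.109 on the log2 scale, below the SD between arrays of 0.46 with IL4 and emodin, 0.28 with IL4 and 0.48 in the control.

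The rise with IL4 was 1.60 ± 0.26 (SE, n = 4 per group; limma adjusted p = 0.00122). With IL4 and emodin *Tfrc* was lower than with IL4 by a log2 difference of -0.77 ± 0.26 (adjusted p = 0.0225) and higher than in the control by 0.83 ± 0.26 (adjusted p = 0.0164). The fall against IL4 was not called without IL4 replicate 3 (-0.65, adjusted p = 0.0664), without emodin replicate 1 (-0.72, 0.0520) or without emodin replicate 4 (-0.58, 0.0682). The rise against control was not called without control replicate 4 (0.65, adjusted p = 0.0514) or emodin replicate 3 (0.67, 0.0501), and was -0.13 with the spike-in probes. Between the same-numbered arrays of IL4 with emodin and IL4 the difference was negative in 4 of 4, at -0.78, -0.61, -0.64 and -1.05. These arrays were not taken as pairs, so this is only a description. Over all genes, each emodin array did deviate most like the IL4 array of its own number. With the replicate number as a block in the fit of all arrays, the fall against IL4 stayed called. The fits with an array left out held no such block.

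The other *Tfrc* probes went the same way. They gave 1.47 and 1.33 for IL4 against control, -0.64 and -0.76 for IL4 with emodin against IL4, and 0.83 and 0.57 for IL4 with emodin against control. The -0.64 and the 0.57 were not called (adjusted p = 0.0684 and 0.0628 over 27705 probes).

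The start of *Tfrc* is shown because it is the member with the largest rise under IL4 for which RefSeq sequence around the gene's start was at hand. It is given for GRCm38.p6, chr16:32608895-32608924, plus strand, with a stretch in capitals in which the 6 letters GGAAGT, an ETS factor core, overlap TGACGT, the first letters of a cyclic AMP response element.

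Tfrc start: cgtgcggaaGGAAGTGACGTagatccagag

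The capitals cover bases 9 to 19 counted from the first base of the gene. Windows of 250 bases before to 50 after a start were searched on both strands, for 6 of 9 members with 8 windows. No window was at hand for *Slc40a1*, *Hmox1* or *Slc11a2*, so these were not searched. The overlapping pair, as in the capitals above, occurred in 0.259% of all 32851 windows, GGAAGT in 23.8% and TGACGT in 7.51%. Among the members' windows only those of *Tfrc* held any of these, and 2 further patterns, TGACNNNGC (12.4% of all windows), the core of an antioxidant response element, and TTC followed after 4 bases by GAA (6.95%), the spacing that STAT6 prefers, matched none of the 8. A match of letters is a description and shows no binding.

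*Slc11a2* encodes the divalent metal transporter that moves iron out of endosomes (chromosome 15, 100387898 to 100424209). Its brighter probe had levels of 3.01, 2.97, 2.94 and 2.81 with IL4 and emodin, 4.00, 3.78, 3.70 and 3.74 with IL4, and 3.67, 3.47, 3.35 and 3.30 in the control. The 3 groups did not overlap, in the order IL4, control, IL4 with emodin. The difference was 0.36 ± 0.10 for IL4 against control (adjusted p = 0.0246), -0.88 ± 0.10 for IL4 with emodin against IL4 (adjusted p = 9.81e-06) and -0.52 ± 0.10 against control (adjusted p = 0.000665). The rise with IL4 was not called when one of 5 arrays was left out: control replicate 2 (0.37, adjusted p = 0.0505), 3 (0.33, 0.0701) or 4 (0.31, 0.0745), or IL4 replicate 1 (0.30, 0.0750) or 2 (0.37, 0.0524). Nor was it called after normexp background correction with quantile normalization (0.29, adjusted p = 0.0710).

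The dimmer *Slc11a2* probe, placed on the same transcript record, went the other way with emodin. It read 1.78, 1.85, 1.57 and 1.81 with IL4 and emodin, 0.25, 0.52, 0.41 and 0.46 with IL4, and 0.65, 0.38, 0.47 and 0.44 in the control. All 4 emodin arrays lay above all 8 others. The difference was 1.34 ± 0.09 against IL4 (adjusted p = 1.69e-07) and 1.26 ± 0.09 against control (adjusted p = 2.9e-07), and -0.08 ± 0.09 for IL4 against control (adjusted p = 0.643). With the spike-in probes the emodin differences of this probe were 0.26 and 0.31 and neither was called.

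Both *Slc11a2* probes were read on the same array, so a scaling that shifts each array as a whole leaves their ratio unchanged. Quantile normalization can change it. There the brighter probe gave -0.91 and the dimmer probe 1.36 for IL4 with emodin against IL4, so the disagreement remained. The log2 ratio of the brighter to the dimmer probe was 1.23, 1.12, 1.37 and 1.00 with IL4 and emodin, 3.75, 3.27, 3.29 and 3.28 with IL4, and 3.02, 3.09, 2.88 and 2.86 in the control. The means were 1.18 ± 0.16, 3.40 ± 0.23 and 2.96 ± 0.11 (SD, n = 4 each), and no groups overlapped. The ratio was chosen after the values were seen and has no test. Where on the transcript the probes lie is not given in the sources used here, so no direction for *Slc11a2* as a gene is drawn from the emodin comparisons.

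**Figure D2:**
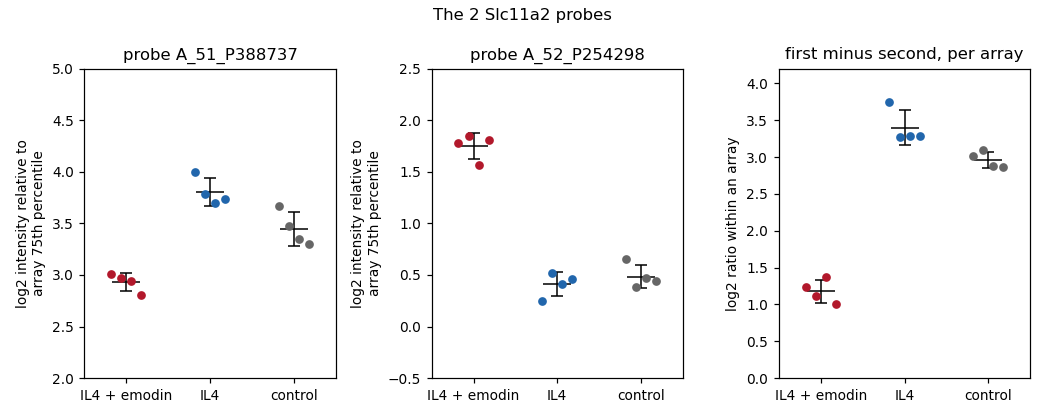
The brighter probe (left) and dimmer probe (middle) of *Slc11a2* on every array, in log2 intensity relative to the array's 75th percentile, and their log2 ratio within each array (right). Points are arrays and bars the mean and SD of 4 arrays; with emodin the brighter probe was lower, the dimmer probe higher, and the ratio fell to 1.18 against 3.40 with IL4 and 2.96 in the control.

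*Slc11a1* encodes the metal transporter of the phagosome membrane, known from resistance to intracellular microbes (chromosome 1, 74375014 to 74386057). Its protein does not function in C57BL/6 mice, the strain used here. The levels were 7.66, 7.95, 7.72 and 7.99 with IL4 and emodin, 7.02, 6.96, 6.98 and 6.92 with IL4, and 7.36, 7.32, 7.48 and 7.20 in the control. No groups overlapped, with emodin highest and IL4 alone lowest. *Slc11a1* differed by -0.37 ± 0.09 for IL4 against control (adjusted p = 0.0153), by 0.86 ± 0.09 for IL4 with emodin against IL4 (adjusted p = 6.66e-06) and by 0.49 ± 0.09 for IL4 with emodin against control (adjusted p = 0.000599). The fall with IL4 was not called with the spike-in probes (-0.24, adjusted p = 0.248). With quantile normalization the emodin differences were 0.35 and -0.01, and with the spike-in probes -0.22 and -0.47, so their size and sign rest on the scaling.

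*Fth1* encodes the heavy chain of ferritin, which oxidizes iron for storage (chromosome 19, 9980600 to 9985111). It read 10.72, 10.71, 10.82 and 10.72 with IL4 and emodin, 10.03, 10.15, 9.78 and 10.07 with IL4, and 9.89, 10.02, 9.90 and 10.05 in the control. *Ftl1* encodes the light chain, which helps form the iron core (chromosome 7, 45457944 to 45459886). It read 10.41, 10.39, 10.59 and 10.46 with IL4 and emodin, 9.74, 9.78, 9.77 and 9.75 with IL4, and 9.62, 9.77, 9.70 and 9.73 in the control. For both genes the emodin arrays lay above all others, and the IL4 and control arrays overlapped.

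IL4 alone gave *Fth1* 0.04 ± 0.09 (adjusted p = 0.796) and *Ftl1* 0.06 ± 0.07 (adjusted p = 0.633). With emodin the scaled levels were higher than with IL4, by 0.73 ± 0.09 for *Fth1* (adjusted p = 1.6e-05) and 0.70 ± 0.07 for *Ftl1* (adjusted p = 2.78e-06). Against control the differences were 0.77 ± 0.09 and 0.76 ± 0.07. The second *Ftl1* probe gave -0.23 ± 0.23, 0.96 ± 0.23 and 0.73 ± 0.23 in the 3 comparisons, with IL4 replicate 4 at 8.57 where the other IL4 arrays read 9.73 to 9.82.

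The ferritin spots were close to the top of the scanner's range. The median pixel of the *Fth1* spot was at 76.2% to 99.2% of the scanner's maximum, and that of the main *Ftl1* probe at 81% to 99.1%, with all 4 emodin arrays at 99.1%. Before scaling, *Fth1* averaged 834000 ± 30500 intensity units with IL4 and emodin, 803000 ± 90000 with IL4 and 729000 ± 55800 in the control. Unscaled *Ftl1* averaged 687000 ± 8120, 673000 ± 15800 and 609000 ± 54000 in the same order. The unscaled *Fth1* and *Ftl1* signals of the emodin and IL4 arrays thus lay close together while the 75th percentiles they were divided by did not. With quantile normalization the emodin differences against IL4 were 0.01 and -0.03, and with the spike-in probes -0.35 and -0.38. Neither a rise nor a fall of ferritin mRNA with emodin holds across these scalings.

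**Figure D3:**
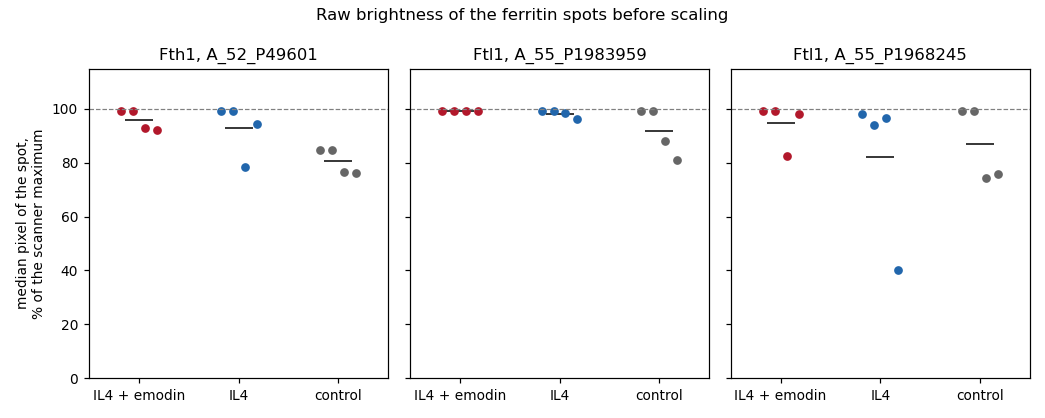
Raw brightness of the 3 ferritin probes on every array before scaling, as the spot's median pixel in percent of the scanner's maximum; points are arrays, bars the group means, and the dashed line the maximum. Spots of every group come close to the line, and all 4 emodin arrays of the main *Ftl1* probe (middle) are at 99.1%.

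*Hmox1* encodes heme oxygenase 1, the inducible enzyme that opens heme and frees its iron (chromosome 8, 75093618 to 75100593). The levels were 5.84, 6.15, 6.11 and 6.28 with IL4 and emodin, 5.67, 5.70, 5.96 and 5.74 with IL4, and 5.97, 6.16, 6.34 and 6.03 in the control. Every IL4 array lay below every control array, with IL4 replicate 3 at 5.96 and control replicate 1 at 5.97 the closest, and the emodin arrays overlapped both groups. IL4 against control gave -0.36 ± 0.11, just outside the threshold (adjusted p = 0.0504), and inside it when the fit held a term for replicate number (the block; adjusted p = 0.0170). It was also called without control replicate 1 (-0.41, adjusted p = 0.0401), IL4 replicate 3 (-0.42, 0.0389), or emodin replicate 1 (-0.36, 0.0311) or 4 (-0.36, 0.0465). The emodin arrays enter this difference only through the shared estimate of spread. Quantile normalization called it (-0.37, adjusted p = 0.0179), and scaling to the spike-in probes did not (-0.23, adjusted p = 0.345).

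With IL4 and emodin *Hmox1* was higher than with IL4 by 0.33 ± 0.11 (adjusted p = 0.0234) and differed from the control by -0.03 ± 0.11 (adjusted p = 0.838). The rise was 0.07 with quantile normalization (adjusted p = 0.561) and -0.76 with the spike-in probes. It was not called without IL4 replicate 1 (0.30, adjusted p = 0.0623), 2 (0.31, 0.0578) or 4 (0.32, 0.0505), or without emodin replicate 2 (0.31, 0.0518) or 4 (0.27, 0.0691). The difference from the control reached -0.30 with quantile normalization (adjusted p = 0.0165). A second *Hmox1* probe gave -0.34, 0.30 and -0.04 in the 3 comparisons, the 0.30 called (adjusted p = 0.0405). With quantile normalization this probe gave 0.30 for IL4 with emodin against IL4 (adjusted p = 0.0311) and -0.08 against control (adjusted p = 0.538), so the 2 probes differed in both calls under that scaling. Scaled to the spike-in probes, it gave -0.79 and -1.0.

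*Slc40a1* encodes ferroportin, the only known iron exporter of mammalian cells (chromosome 1, 45908070 to 45926532). Its levels were -1.71, -1.72, -2.47 and -1.07 with IL4 and emodin, -3.72, -3.82, -4.00 and -3.28 with IL4, and -1.32, -0.87, -1.50 and -1.02 in the control. The IL4 arrays lay far below all 8 others, and the emodin and control arrays overlapped. In intensity units this was 155 ± 60.2, 60.6 ± 13.3 and 326 ± 64.5 (SD, n = 4 each), so the IL4 arrays were dim although above background.

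*Slc40a1* fell by 2.53 ± 0.26 on the log2 scale with IL4 (adjusted p = 3.29e-05), with same-numbered differences of -2.40, -2.95, -2.50 and -2.26. With emodin added it was higher than with IL4 by 1.96 ± 0.26 (adjusted p = 3.71e-05), with same-numbered differences of 2.01, 2.10, 1.53 and 2.21. This rise was 1.76 with quantile normalization (adjusted p = 0.000124) and 0.88 with the spike-in probes (adjusted p = 0.0166). Relative to the median of all genes it was 1.79, 1.74 and 1.80 in the 3 scalings. The 1.79 and the 1.80 come from scalings that shift each array as a whole, so they match by construction for any gene. *Fth1*, whose rise was lost with the spike-in probes, was at 0.56 and 0.57 in the same scalings. Their match therefore says nothing about *Slc40a1*. By its own calls, *Slc40a1* was higher than with IL4 in each of the 3 scalings, the only member of which that holds.

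Against control, IL4 with emodin left *Slc40a1* at -0.56 ± 0.26 (adjusted p = 0.0764), which missed the threshold and does not show that the levels were alike. Same-numbered arrays differed by -0.39, -0.85, -0.97 and -0.05. The difference was called without emodin replicate 4 (-0.79, adjusted p = 0.0121), with quantile normalization (-0.68, adjusted p = 0.0457) and with the spike-in probes (-1.52, adjusted p = 0.000466).

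**Figure D4:**
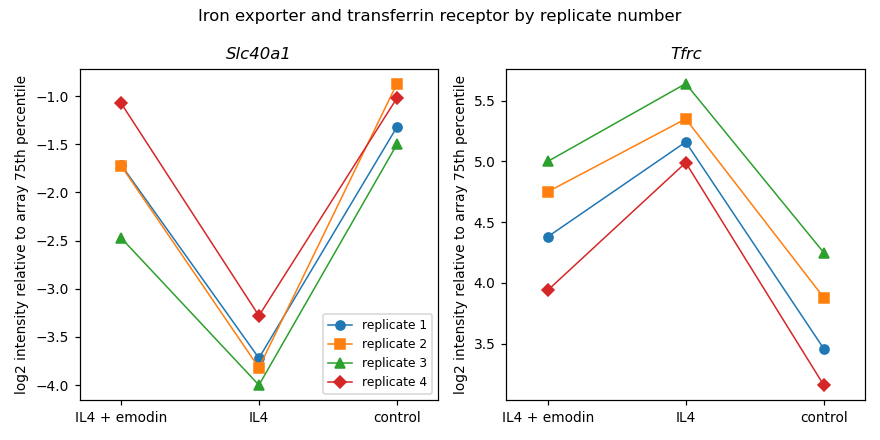
Levels of *Slc40a1* (left) and *Tfrc* (right) in log2 intensity relative to the array's 75th percentile, with a line for each replicate number across the 3 groups. Replicate 3 was the lowest for *Slc40a1* and the highest for *Tfrc* in every group, and all 4 lines turned the same way at IL4.

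Replicates carrying the same number lay in the same order in the *Tfrc* values of all 3 groups, with replicate 3 highest and replicate 4 lowest. For *Slc40a1* replicate 3 was lowest in every group. Summed markers of mesothelial cells and fibroblasts also followed the number, at 27.8, 57, 58.2 and 122 for replicates 1 to 4 with IL4 and emodin, 22.2, 54.2, 59.6 and 110 with IL4, and 19.8, 45.7, 45.8 and 85.2 in the control. All 8 of these markers were above background on every array with IL4 and emodin and with IL4, and 7 of 8 in the control. Their part in the members' values was not tested. The number is also the column of the array on the slide, and replicates 1 and 2 were from females, so number, column and sample of origin cannot be told apart.

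*Ireb2* encodes iron regulatory protein 2, which is itself degraded when iron is plentiful (chromosome 9, 54862658 to 54912534). It read -1.05, -0.76, -0.90 and -0.74 with IL4 and emodin, -1.14, -1.03, -1.28 and -1.0 with IL4, and -1.14, -1.05, -0.96 and -1.30 in the control. The 3 groups overlapped. IL4 against control gave 0.00 ± 0.10 (adjusted p = 1), and both emodin differences were 0.25 ± 0.10 (adjusted p = 0.0479 against IL4 and 0.0499 against control). These calls were the weakest of the set. They did not pass with quantile normalization (adjusted p = 0.137 and 0.126), were reversed with the spike-in probes (-0.83 and -0.71), and with single arrays left out ranged in adjusted p over 0.0202 to 0.139 and 0.0215 to 0.144.

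*Aco1* encodes iron regulatory protein 1, which acts as a cytosolic aconitase when it holds an iron-sulfur cluster (chromosome 4, 40143265 to 40199009). The levels were -1.80, -1.15, -1.91 and -1.46 with IL4 and emodin, -2.16, -1.99, -1.94 and -1.98 with IL4, and -1.96, -1.91, -1.98 and -2.01 in the control. The emodin arrays spread more widely than the others and lay above all IL4 arrays. IL4 against control gave -0.05 ± 0.14 (adjusted p = 0.844), IL4 with emodin against IL4 gave 0.44 ± 0.14 (adjusted p = 0.0163) and against control 0.38 ± 0.14 (adjusted p = 0.0321). Quantile normalization ended both calls (0.32, adjusted p = 0.0839, and 0.26, adjusted p = 0.149) and spike-in scaling turned them to -0.65 and -0.57. Without emodin replicate 2 the values were 0.29 against IL4, still called, and 0.24 against control (adjusted p = 0.0759). The call against control was also lost without control replicate 1 (0.38, adjusted p = 0.0564), 3 (0.38, 0.0618) or 4 (0.37, 0.0667), or emodin replicate 4 (0.34, 0.0782).

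**Figure D5:**
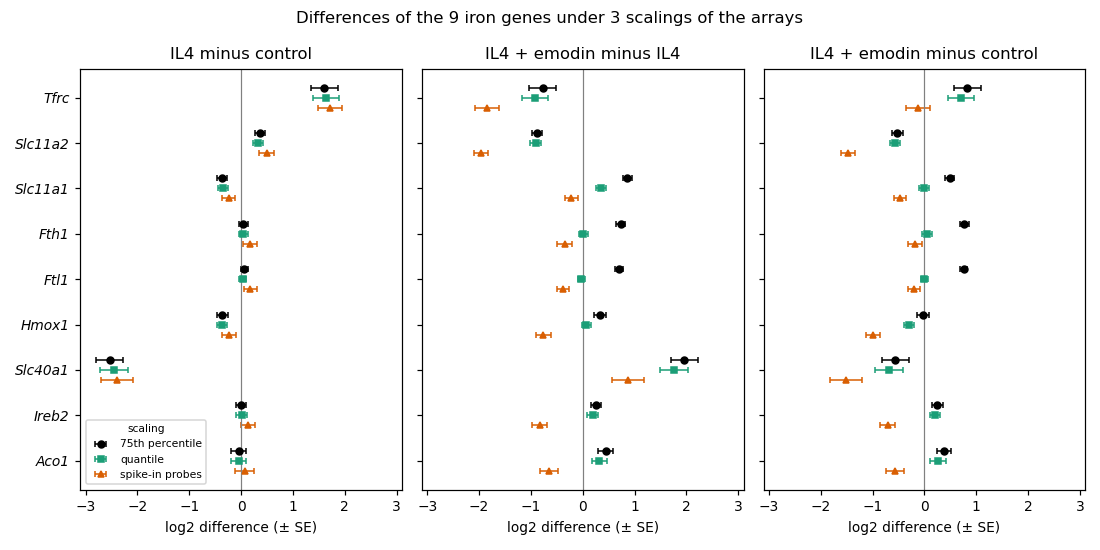
Log2 differences of the 9 iron genes (± SE, 4 arrays a group) in the 3 comparisons, with arrays scaled to the 75th percentile (circles), quantile-normalized (squares) or scaled to spike-in probes (triangles). For IL4 against control (left) *Slc40a1* is at -2.53, -2.45 and -2.40. For IL4 with emodin against IL4 (middle) the ferritins, *Slc11a1*, *Hmox1*, *Ireb2* and *Aco1* move across 0. *Slc40a1* stays above IL4 there, at 1.96, 1.76 and 0.88. Against control (right) *Tfrc* also moves across 0 (0.83, 0.71 and -0.13), while *Hmox1* stays below it (-0.03, -0.30 and -0.99).

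Sex did not separate the members' responses in a detectable way. In a fit with 2 arrays per sex and group, limma called no gene of 20862 for a male against female difference in any of the 3 comparisons. Under an unadjusted p of 0.05 were 271, 507 and 433 genes, each below the share of 0.05 that chance alone gives on average. For *Slc40a1* the difference of IL4 from control was -2.38 in males and -2.67 in females (difference 0.29 ± 0.59, adjusted p = 1). For *Tfrc* it was 1.61 in males and 1.58 in females (difference 0.03 ± 0.61, adjusted p = 1).

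Genes whose levels followed a member most closely over the 12 arrays were found by Pearson's r among named genes, as a description. The arrays share their groups and slides, so high values are common. *Pcp4l1* (0.985), *Pmp22* (0.979) and *Rap2a* (0.979) were most like *Slc40a1*. *Rras2* (0.980), *Klhl22* (0.971) and *Rnase2a* (0.964) were most like *Tfrc*. *Slc11a1* was followed by *Gramd1b* (0.987), *Gclm* (0.981) and *Slc20a1* (0.979), and *Hmox1*, with lower values, by *Dnajb4* (0.951), *Gsta3* (0.931) and *Spata48* (0.931). For the brighter probe of *Slc11a2* they were *Evl* (0.985), *Wars* (0.984) and *Nup93* (0.984). *Rps14* (0.986), *Eif3h* (0.980) and *Gem* (0.980) were most like *Fth1*, and *Rpl37rt*, *Cd2bp2* and *Zfp738* (0.993 each) most like *Ftl1*. The lists for the regulatory proteins were *Ppp1r2* (0.934), *Ube2n* (0.922) and *Cpsf6* (0.902) for *Ireb2*, and *Sf3a2* (0.938) and *Rec8* (0.934) for *Aco1*. *Slc40a1* and *Tfrc* themselves were at -0.90 over these arrays, and *Fth1* and *Ftl1* at 0.97.

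The surrounding pathway was read from 66 other genes in 6 lists, of which 54 were bright enough to test. The 12 that were not include *Hamp*, which encodes the hormone hepcidin that removes ferroportin from the cell surface, and *Hamp2*. *Cd163*, the haemoglobin scavenger receptor, and *Tfr2* were also too dim. With IL4 against control 17 of 54 were called, 7 higher and 10 lower, which is 31.5% against 17.5% of all genes. With the spike-in probes 8 were called, and among the genes named below *Hp*, *Hmox2*, *Pcbp2*, *Ncoa4*, *Slc25a28*, *Hscb*, *Zfp36l2* and *Spic* lost their calls for IL4 against control. With IL4 and emodin against IL4 32 were called, 22 higher and 10 lower (59.3% against 65.9%). Quantile normalization gave 16 higher and 12 lower, and the spike-in probes 1 higher and 42 lower. With IL4 and emodin against control 35 were called, 19 higher and 16 lower (64.8% against 62.9%), with 15 higher and 18 lower by quantile normalization and 1 higher and 36 lower by the spike-in probes.

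Among other uptake genes, 1 of 11 tested was called with IL4, and 1 rose and 2 fell with emodin against IL4 (0 and 9 with the spike-in probes). *Hfe*, whose product binds the transferrin receptor, differed as *Tfrc* did: it was higher with IL4 than in the control by 1.04 ± 0.11 (adjusted p = 3.9e-05) and lower with emodin than with IL4 by 1.23 on the log2 scale (-1.23 ± 0.11, adjusted p = 1.51e-06). *Slc39a14*, a transporter of iron not bound to transferrin, fell with emodin (-1.05 ± 0.10). *Mcoln1*, a lysosomal channel, rose by 0.69 ± 0.07, but was -0.39 with the spike-in probes. *Trf*, transferrin itself, gave 0.19 ± 0.24 with IL4 (adjusted p = 0.659).

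Of 11 heme and haemoglobin genes, 4 fell and none rose with IL4, with a median of -0.29, and 1 fell with the spike-in probes. *Hp*, the haemoglobin-binding haptoglobin, fell by 0.87 (-0.87 ± 0.22, adjusted p = 0.0154), and *Blvrb*, a biliverdin reductase that acts after heme oxygenase, by 0.72 (-0.72 ± 0.13, adjusted p = 0.00251). With emodin against IL4, 4 rose and 1 fell, against 2 and 2 with quantile normalization and 0 and 10 with the spike-in probes. *Blvrb* was higher by 0.93 ± 0.13, *Hmox2*, the constitutive heme oxygenase, by 0.44 ± 0.11, and *Abcg2*, which can export heme, was lower (-0.78 ± 0.08). With the spike-in probes *Blvrb* was at -0.16 and *Hmox2* at -0.65.

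The export list held 3 genes bright enough to test, and none was called with IL4. The ferroxidases *Cp* and *Heph*, which help ferroportin, gave 0.36 ± 0.31 and 0.20 ± 0.43 with IL4 (adjusted p = 0.485 and 0.807). *Fkbp1a*, which restrains a receptor that drives hepcidin, rose with emodin against IL4 by 1.02 ± 0.07, but was -0.07 with the spike-in probes.

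Among 6 genes of ferritin turnover and iron chaperones, 1 rose and 1 fell with IL4. *Pcbp2*, which delivers iron to ferritin, gave 0.33 ± 0.10 (adjusted p = 0.0336), and *Ncoa4*, the receptor that takes ferritin to lysosomes, -0.31 ± 0.09 (adjusted p = 0.0367). Each lost its call when any of 6 of the 12 arrays was left out. With emodin against IL4, 4 rose and none fell, among them *Pcbp2* (0.71 ± 0.10, but -0.10 on another probe) and the cytosolic glutaredoxin *Glrx3* (0.71 ± 0.13). With the spike-in probes these were -0.38 and -0.37, and all 6 genes of the list were lower.

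Of 10 mitochondrial genes, 1 rose and 3 fell with IL4. The fallers included both mitoferrins, which import iron into mitochondria, *Slc25a37* (-0.88 ± 0.11, adjusted p = 0.000152) and *Slc25a28* (-0.41 ± 0.06, adjusted p = 0.000916). *Abcb8*, a transporter of the inner membrane, was higher by 0.54 ± 0.12, while its other probe gave 0.11. With emodin against IL4, 5 rose and 3 fell, against 4 and 3 with quantile normalization and 0 and 8 with the spike-in probes. *Slc25a37* was higher by 0.86 ± 0.11 and *Hscb*, a chaperone of iron-sulfur clusters, by 1.13 ± 0.10, and with the spike-in probes these were -0.22 and 0.04. *Abcb8* (-1.17 ± 0.12) and *Glrx5* (-0.61 ± 0.11), another cluster gene, were lower.

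The last list held 13 transcription factors and mRNA decay factors of iron genes. With IL4, 4 rose and 2 fell. *Maff*, a small MAF partner of NRF2 and BACH1, was higher by 1.06 ± 0.12, the decay factor *Zfp36l1* by 1.05 ± 0.13, and its relative *Zfp36l2* was lower (-0.76 ± 0.14). *Spic*, the factor of red pulp macrophages that recycle iron, fell by 0.58 (-0.58 ± 0.14, adjusted p = 0.0109) and was dim throughout.

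With emodin against IL4, 7 genes of that list rose and 4 fell, against 5 and 4 with quantile normalization and 1 and 8 with the spike-in probes. *Spic* rose by 1.67 ± 0.14 (adjusted p = 6.95e-07), and was the only gene of the 54 still called higher with the spike-in probes. *Mafk* rose by 1.16 ± 0.11, but by 0.07 with the spike-in probes, where it was not called. *Maff* gave 0.97 against IL4, but -0.12 with the spike-in probes. Against control, IL4 with emodin gave *Maff* 2.02 ± 0.12 (limma adjusted p = 4.79e-08). That difference was 2.03 with quantile normalization and 1.07 with the spike-in probes, where *Maff* was the only gene of the 54 called higher. *Bach1*, the heme-sensing repressor of *Hmox1* and the ferritin genes, fell (-1.17 ± 0.12, adjusted p = 4.03e-06), and so did *Nfe2l2*, which encodes the activator NRF2 of the same genes (-0.66 ± 0.08), and *Keap1*, which encodes its inhibitor (-0.64 ± 0.06). The probe standing for *Mtf1*, a metal-sensing factor, fell by 1.58 (-1.58 ± 0.12), while another of its probes rose by 1.12, so *Mtf1* has no single direction here.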

How the data were processed

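The authors deposited 12 one-colour Agilent scanner files (Feature Extraction 10.7.3.1, per the file headers) with background-corrected processed intensity per spot, and a value table on a log2 scale. That table equalled quantile-normalized, probe-centred scanner values (r = 1 on every array). The headers name the mouse build mm9. Here the deposited intensity was taken as log2 minus each array's 75th percentile. Spots flagged as outliers were dropped, and spots of a probe averaged. A probe was kept if the scanner software called it well above background on each of the 4 arrays of some group (27705 of 55681 probes). The array's transcript accessions gave a RefSeq symbol (GRCm38.p6) to 27509 probes. limma 3.58.1 in R 4.3.3 fitted 3 group means to 12 arrays with 9 residual degrees of freedom, and was checked on simulated data. Figures used matplotlib 3.10.9.

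The number of arrays, 4 a group, limits the precision. The members and lists were chosen with earlier results of these data known. The text names all members with every probe, for each pathway list up to 2 called rises and 2 called falls of largest size in a comparison, and for each member the 3 genes of highest correlation, of which 1 is not reported here. *Trf*, *Cp*, *Heph*, *Nfe2l2*, *Keap1* and the genes too dim to test were named outside that rule, after their values were seen. Same-numbered arrays deviated together in IL4 and control (correlations 0.52, 0.31, 0.33 and 0.44), so the numbers were taken to pair them. The p-values given are still from the fit without pairs, unless the block is named. The emodin arrays gave 0.44, 0.09, 0.31 and 0.40 with IL4, and 0.51, 0.06, 0.34 and 0.37 with the control. Replicate 2 was low in both, although against IL4 each emodin array still correlated best with its own number. Because of replicate 2, the numbers were not taken as pairs with emodin. Same-numbered differences with emodin are therefore only a description. Alternatives changed the scaling, background correction, filter, probe, samples fitted, replicate block and sex term.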

Additional observations from a re-analysis of the deposited data

Results flagged for a closer look

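*Fth1* on the array of IL4 with emodin replicate 3 stood apart from its group. It read 10.82 where the other emodin arrays read 10.72, 10.71 and 10.72, and the gap to the nearest of them was 0.909 of the group's range. The whole range of the group was small, with an SD of 0.05. Of the 27 groups of values tested this way, 1 met the mark, and chance gives about 1 in 20.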

How the results depend on the processing

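For IL4 against control *Slc40a1* and *Tfrc* kept their direction and call in every scaling, while *Slc11a1* lost its call with spike-in scaling. Of 9 members, 9 were called for IL4 with emodin against IL4, but 4 with quantile normalization, 4 with normexp and quantile normalization and 4 in the deposited value table. Against control 7 were called, but 4 with quantile normalization and 4 in the deposited table. The pathway genes called for IL4 against control were 17, but 8 with spike-in scaling. Over all genes the 3661 calls for IL4 against control became 5541 with normexp and 7308 of 37018 with no filter on dim probes, where IL4 with emodin gave 22744 against IL4 and 19845 against control. The calls of IL4 with emodin against IL4 split 8218 higher and 5535 lower, but 6135 and 6454 with quantile normalization and 725 and 16831 with spike-in scaling. Against control they split 7781 and 5345, but 5587 and 6301, and 862 and 15758. For IL4 against control the split was 1873 and 1788, and 1836 and 646 with spike-in scaling. What caused these shifts was not tested.

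With single arrays left out, 3 to 5 members were called for IL4 against control, 6 to 9 for IL4 with emodin against IL4 and 4 to 7 against control (4 without control replicate 4). Pathway calls ranged over 14 to 18, 30 to 36 and 31 to 35, and calls over all genes over 2894 to 3773, 12981 to 13932 and 12284 to 13085. Near 0, *Ireb2* for IL4 against control ranged over -0.06 to 0.06, *Fth1* over -0.01 to 0.12, and *Hmox1* for IL4 with emodin against control over -0.09 to 0.06.

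With spike-in scaling IL4 with emodin against IL4 turned to -0.35 for *Fth1*, -0.38 for *Ftl1*, -0.76 for *Hmox1*, -0.22 for *Slc11a1*, -0.83 for *Ireb2*, -0.65 for *Aco1*, -0.16 for *Blvrb*, -0.38 for *Pcbp2*, -0.22 for *Slc25a37*, -0.65 for *Hmox2*, -0.07 for *Fkbp1a*, -0.37 for *Glrx3* and -0.39 for *Mcoln1*. Against control it turned to -0.13 for *Tfrc*, -0.18 for *Fth1*, -0.20 for *Ftl1*, -0.47 for *Slc11a1*, -0.71 for *Ireb2* and -0.57 for *Aco1*. For IL4 against control, *Ireb2* was 0.13 and *Aco1* 0.07 with spike-in scaling. With quantile normalization and in the deposited table, *Ftl1* was -0.03 against IL4 and 0.00 against control, *Slc11a1* -0.01 against control and *Ireb2* 0.01 for IL4 against control. With normexp and quantile normalization, *Ftl1* was -0.07 and -0.06, *Slc11a1* -0.03 against control, and for IL4 against control *Aco1* was 0.14 and *Ireb2* -0.03. For IL4 against control *Ireb2* was -0.04 and *Aco1* 0.11 with normexp and the 75th percentile, and *Ireb2* -0.03 with the percentile over probes detected on all arrays. The other probe of *Slc11a2* gave -0.08, 1.34 and 1.26 in the 3 comparisons, that of *Ftl1* -0.23 for IL4 against control, and those of *Pcbp2* and *Mtf1* -0.10 and 1.12 for IL4 with emodin against IL4.

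With the replicate number as a block, 5, 8 and 7 members were called in the 3 comparisons, 23, 39 and 41 pathway genes, and 5311, 15099 and 14515 of all genes. In the paired comparison of IL4 with control the block changed no other member's call than that of *Hmox1*. In the emodin comparisons the numbers were not taken as pairs. There the block brought the difference of *Slc40a1* from control under the threshold (adjusted p = 0.00915) and took *Ireb2* out (0.0505 against IL4 and 0.0523 against control). Against IL4 each array correlated best with its own number, and against control replicate 2 did not. The ferritin spots lay near the scanner's maximum, and what that does to their differences was not tested.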
